A study of Mus musculus with 4 samples.

Results

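The glycolysis and pentose phosphate genes examined here are 33 named genes of glucose uptake, glycolysis, lactate and pyruvate handling and the pentose phosphate pathway, found on the array by their gene symbol (the gene of pyruvate kinase M under its array name Pkm2, RefSeq symbol Pkm). Of the 33 genes, 30 were on the table, among 17916 genes in all. They were measured by 42 of 25697 probes. The other 3, Hk2, Gpi1 and Ldhb, were not analysed here. A gene was taken as detected where its probe had a detection p under 0.01. By that threshold 25 of the 30 were detected on at least 1 array and 24 on all 4, against 8962 genes detected on at least 1 array in the whole table. Hk3 was detected in CD43+ cells only, and Pfkfb3, Pgk1, Bpgm, Slc16a1 and Slc16a3 were not detected on any array, so no difference is given for them.

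RNA was measured in bone marrow cells of C57BL6/J mice with 1 Illumina bead array for each of 4 groups, sorted by flow cytometry for B220, a marker of the B lineage, and split by CD43, a sialoglycoprotein of early B-lineage cells and of other white cells. The groups were B220+ CD43- cells of mice lacking both Btg1 and Btg2 (Btg1-/-;Btg2-/-, dKO), B220+ CD43- cells of wild-type (WT) mice, B220+ CD43+ dKO cells and B220+ CD43+ WT cells. In the labels, CD43+ stands for the stages A, B and C of Hardy's scheme, in which pro-B cells lie, and CD43- for its stages D, E and F, from pre-B cells onward. BTG1 and BTG2 are related antiproliferative proteins, and the series asks how they act on B-lineage commitment. The labels do not give ages, sexes or the number of animals per sample. No group had a second array, so a difference between 2 groups had no replicate check.

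Glycolysis turns glucose into pyruvate in a chain of reactions that yields ATP, and the pentose phosphate pathway branches off at glucose 6-phosphate to supply NADPH and the ribose of nucleotides. Pyruvate either becomes lactate through lactate dehydrogenase or enters mitochondria through pyruvate dehydrogenase, which the pyruvate dehydrogenase kinases switch off. In the B lineage, proliferating pro-B and large pre-B cells are known to use more glucose than the resting small pre-B cells that follow them, and the transcription factors MYC and HIF1A are known activators of many of these genes.

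Mean signal was 648 in dKO CD43- and 555 in WT CD43- cells, and 662 in dKO CD43+ and 551 in WT CD43+ cells. Between 39.5% and 43.3% of probes were detected per array, each read from a median of 38 or 39 beads. Btg1 gave raw signals of 8115 in dKO CD43- and 19425 in WT CD43- cells, and of 3459 in dKO CD43+ and 8610 in WT CD43+ cells. Btg1 was thus lower in dKO but still detected, Btg2 was not detected on any array, and where the probes lie relative to the deleted parts is not known here. The B-lineage genes Cd79b, Vpreb1 and Ptprc (the gene of B220) were detected on all 4 arrays, and Spn, which encodes CD43, in the CD43+ cells only. Markers of other white cells were present and moved with the fractions, as given below beside the results they touch. In sorted samples of this kind, fewer cells of a type and less RNA per cell cannot be told apart.

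Promoters are shown for the members with the clearest difference between the fractions and an entry in the RefSeq table. These are 4 members that were lower in CD43- cells (Pfkm, Aldoc, Ldha and Pdk1) and Slc2a1, which lay in the other direction. Each sequence holds the 250 bases before the first listed start, on the gene's own strand (build GRCm38.p6), and capitals mark ACGTG or GCGTG on either strand, the core bound by HIF factors. These letters can overlap CACGTG, the E-box bound by MYC and its relatives, and the whole E-box is in capitals where it occurs. Pfkm, at chr15:98092339-98092588 on the plus strand, held 1 E-box, and 4 starts are listed for the gene.
Pfkm: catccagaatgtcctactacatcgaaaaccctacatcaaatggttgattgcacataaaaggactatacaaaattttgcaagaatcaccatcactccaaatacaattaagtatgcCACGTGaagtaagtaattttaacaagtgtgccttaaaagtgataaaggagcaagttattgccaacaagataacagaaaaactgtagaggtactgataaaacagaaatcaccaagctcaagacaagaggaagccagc
Aldoc, at chr11:78322823-78323072 on the plus strand, held 1 core.
Aldoc: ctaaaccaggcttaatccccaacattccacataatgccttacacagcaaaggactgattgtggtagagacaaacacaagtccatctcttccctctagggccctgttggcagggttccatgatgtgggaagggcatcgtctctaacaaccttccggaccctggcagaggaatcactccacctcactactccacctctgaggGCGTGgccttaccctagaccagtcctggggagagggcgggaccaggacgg
Ldha, at chr7:46845554-46845803 on the plus strand, held 2 E-boxes and 1 further core.
Ldha: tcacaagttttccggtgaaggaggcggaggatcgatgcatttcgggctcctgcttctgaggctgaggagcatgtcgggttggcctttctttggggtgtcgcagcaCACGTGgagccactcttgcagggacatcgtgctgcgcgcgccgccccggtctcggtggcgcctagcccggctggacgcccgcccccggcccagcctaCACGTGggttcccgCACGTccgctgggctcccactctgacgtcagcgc
Pdk1, at chr2:71872974-71873223 on the plus strand, held 1 core.
Pdk1: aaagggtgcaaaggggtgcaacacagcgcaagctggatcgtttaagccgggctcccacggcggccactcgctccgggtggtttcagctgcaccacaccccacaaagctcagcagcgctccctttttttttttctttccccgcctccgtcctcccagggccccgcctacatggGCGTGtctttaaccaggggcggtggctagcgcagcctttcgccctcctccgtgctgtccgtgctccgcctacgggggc
Slc2a1, at chr4:119108495-119108744 on the plus strand, held 2 cores.
Slc2a1: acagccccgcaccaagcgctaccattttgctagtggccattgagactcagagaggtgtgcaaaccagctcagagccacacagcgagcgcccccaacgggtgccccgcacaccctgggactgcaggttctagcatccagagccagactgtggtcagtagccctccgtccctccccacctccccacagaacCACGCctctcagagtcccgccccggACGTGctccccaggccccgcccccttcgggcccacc
The core was present in this window in 24 of the 29 members with a promoter entry (82.8%), against 38.6% of all 27025 genes with such an entry. The E-box was present in 3 of the 29 members (10.3%), against 6.05% of the genes, and GGGCGG, a GC box searched on both strands, in 19 of the 29 (65.5%), against 32.9%. Among detected members the ACGTG or GCGTG core was present in 20 of 24. These included 6 of 6 that fell in CD43- cells and both Slc2a1 and Rpia, whose values were higher in CD43- cells. The background is every gene with a promoter entry, detected here or not. The share among detected genes is not given here, so these counts do not set the members apart from other expressed genes. A match describes these letters and no binding.

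The fractions were compared first, within each genotype. Most members had less RNA in CD43- than in CD43+ cells, the glucose transporter gene Slc2a3 most clearly, and a small group of members went the other way. Values are normalised signals on a linear scale (background corrected, quantile normalised), differences are log2 values of CD43- minus CD43+ cells, and the error beside each is the standard error over beads of the same arrays, which covers the reading of the chip alone. In dKO, 18 of 25 members were below 0 and 7 above 0, against 45.8% and 54.1% of the 8495 genes tested. Their median was -0.28, against 0.049 over all genes. In WT, 20 of 25 were below 0 and 5 above 0, against 45.9% and 53.9% of 8539 genes, with a median of -0.68, against 0.063 over all genes. Of the 24 members detected on all arrays, 17 were below 0 in both genotypes, 5 were above 0 in both, and G6pdx and Pgd had opposite signs. At a threshold of 2-fold, 0 of 25 members were higher in CD43- cells in either genotype, against 6.06% of all genes in dKO and 7.85% in WT. In dKO 3 of 25 members were at least 2-fold lower in CD43- cells (background 10.6%): Slc2a3, Aldoc and Pfkm. In WT 3 of 25 were (background 11.2%): Slc2a3, Pdk3 and Hk3. Both counts are near the background and are no result about the members. At 1.5-fold, a threshold chosen after the values were seen, 0 of 25 members were higher in either genotype (background 15.3% in dKO and 19.3% in WT). Lower in CD43- cells by that threshold were 6 of 25 members in dKO, against 17.8% of all genes, and 15 of 25 in WT, against 19.7%. The 6 were Slc2a3, Pfkm, Aldoc, Ldha, Pdk1 and Pdk3, and each was among the 15. Hk3 entered the WT counts, the dKO count below 0 and both medians through fitted values in CD43- samples where it was not detected.

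**Figure D1:**
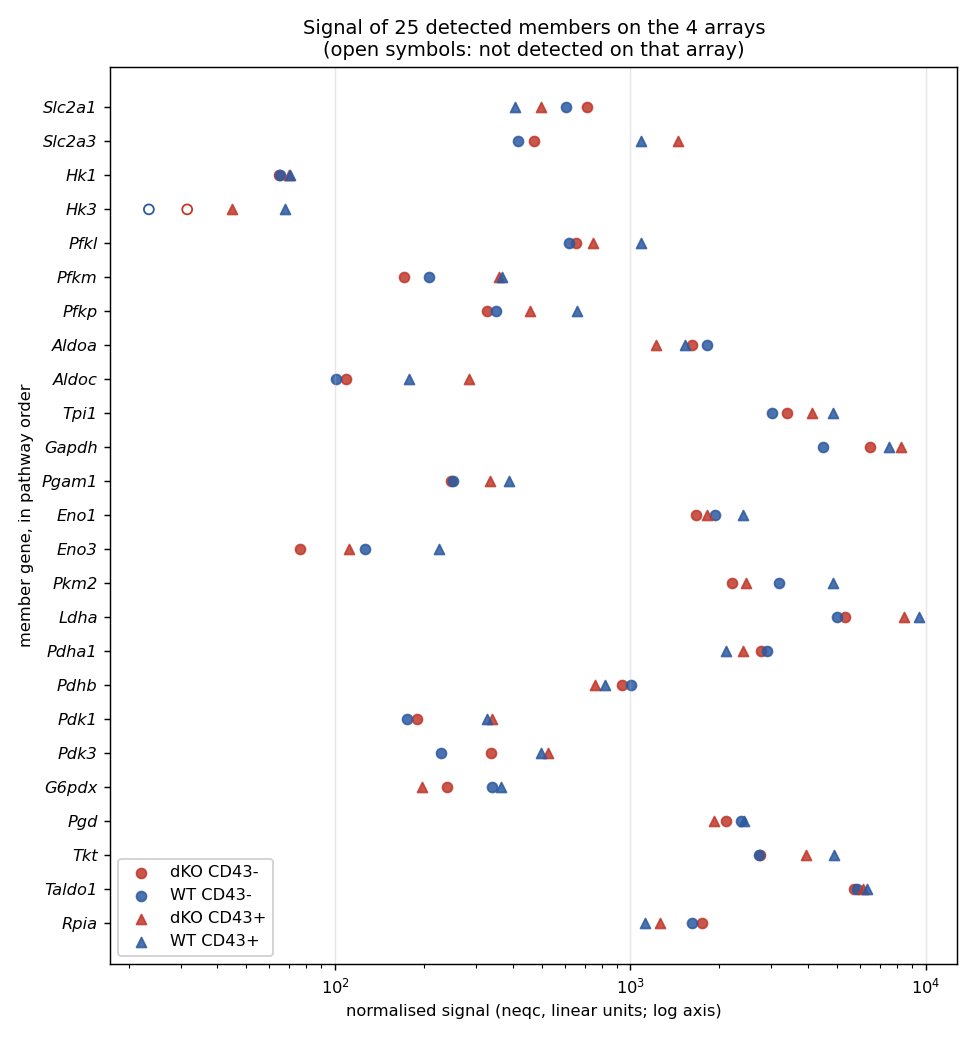
Normalised signal (linear units on a log axis) of the 25 detected members on the 4 arrays, in pathway order. Red is dKO and blue is WT, circles are CD43- and triangles CD43+ cells, 1 symbol is 1 array, and open symbols were not detected; both Slc2a3 circles lie left of both triangles, while both Pkm2 symbols of dKO lie left of both of WT.

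A fit of fraction to the 4 arrays, blocked by genotype (limma, Benjamini-Hochberg adjustment over 8962 genes) gave the test. It has 1 residual degree of freedom, counts any fraction difference that is unlike in dKO and WT as noise, and takes the arrays as independent although fractions of 1 genotype may come from the same animals. By this fit 0 of 25 members rose and 7 of 25 fell in CD43- cells, against 10.2% of all genes that rose and 12.9% that fell. In the order of adjusted p, the 7 were Slc2a3, Pfkm, Pdk1, Aldoc, Ldha, Pdk3 and Eno3. The unadjusted p was under 0.05 for 15 members and 3568 genes. On the authors' RMA values the same fit called Slc2a3 alone of the members (4%), where 6.82% of all genes were called lower. It called 12 or 13 members lower under some other settings, where 14.6% to 16.2% of all genes were called lower.

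Glucose enters cells through facilitative transporters. Slc2a3, which encodes the high-affinity transporter GLUT3, had a normalised signal of 471 in dKO CD43- and 416 in WT CD43- cells, and of 1447 in dKO CD43+ and 1089 in WT CD43+ cells. Both CD43- samples were below both CD43+ samples. Slc2a3 was 3.07-fold lower in CD43- cells in dKO (-1.62 in log2, bead SE 0.078), and in WT the fold was 2.62 (-1.39, bead SE 0.09). It fell by 1.51 on the log2 scale in the fit (limma, adjusted p = 0.00697), and it was called in all 9 versions of the fit, with adjusted p from 3.39e-05 to 0.0355. Slc2a1, which encodes the widely expressed transporter GLUT1, lay in the opposite direction. Its signal was 715 in dKO CD43- and 605 in WT CD43- cells, and 497 in dKO CD43+ and 406 in WT CD43+ cells. Both CD43- samples were above both CD43+ samples, with log2 differences of 0.53 (bead SE 0.081) in dKO and 0.58 (bead SE 0.097) in WT. Slc2a1 did not pass the fit (limma, adjusted p = 0.0681, and between 0.0119 and 0.121 over the versions). Under median scaling dKO CD43+ cells lay just above WT CD43- cells, with fitted differences of 0.57 for genotype and 0.54 for fraction. The share of all genes whose groups separate in this way is not given here. The exporters of lactate, Slc16a1 and Slc16a3, were not detected.

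Hexokinases trap glucose as glucose 6-phosphate. Hk1, the general form, was dim and lay between 64.5 and 70.5 on all 4 arrays, with log2 differences between the fractions of -0.12 (bead SE 0.246) in dKO and -0.11 (bead SE 0.292) in WT, within the reading error. Hk3, the form of granulocytes and other myeloid cells, was not detected in CD43- cells and had signals of 44.8 in dKO CD43+ and 67.9 in WT CD43+ cells. In WT it was at least 1.39-fold lower in CD43- cells, and in dKO the bound gave no fold.

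Phosphofructokinase is the main control step of glycolysis, and its subunits are named for liver, muscle and platelet. Pfkm, the muscle form, had signals of 171 in dKO CD43- and 209 in WT CD43- cells, and of 359 in dKO CD43+ and 367 in WT CD43+ cells. Its fraction groups did not overlap, it was 2.10-fold lower in CD43- cells in dKO and 1.76-fold lower in WT, and it fell by 0.94 in the fit (limma, adjusted p = 0.0226). Its 2 other probes were detected in both CD43+ samples and in neither CD43- sample. Pfkp, the platelet form, had signals of 328 in dKO CD43- and 351 in WT CD43- cells, and of 458 in dKO CD43+ and 660 in WT CD43+ cells. Its differences were -0.48 (bead SE 0.112) in dKO and -0.91 (bead SE 0.125) in WT, and it did not pass the fit (limma, adjusted p = 0.059). Pfkl, the liver form, differed by -0.19 (bead SE 0.069) in dKO and -0.80 (bead SE 0.09) in WT, and in the authors' RMA values its difference in dKO was 0.11, of the opposite sign. Pfkl did not pass the fit either (limma, adjusted p = 0.159). Over 9 versions of the fit, Pfkm was called in 8, Pfkp in 3 and Pfkl in 1.

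Aldolase splits the 6-carbon sugar, and its forms went different ways. Aldoc, the form known best from brain, had signals of 109 in dKO CD43- and 100 in WT CD43- cells, and of 285 in dKO CD43+ and 178 in WT CD43+ cells. It was 2.62-fold lower in CD43- cells in dKO and 1.77-fold lower in WT, and it fell by 1.11 in the fit (limma, adjusted p = 0.0254). Aldoa, the form of most tissues, had signals of 1621 in dKO CD43- and 1813 in WT CD43- cells, and of 1218 in dKO CD43+ and 1531 in WT CD43+ cells. It was above 0 in both genotypes, by 0.41 (bead SE 0.081) in dKO and 0.24 (bead SE 0.073) in WT, and did not pass the fit (limma, adjusted p = 0.202).

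The next enzymes of the chain lay below 0 in both genotypes. Gapdh, glyceraldehyde 3-phosphate dehydrogenase, had signals of 6471 in dKO CD43- and 4490 in WT CD43- cells, and of 8228 in dKO CD43+ and 7477 in WT CD43+ cells. The 2 CD43- samples lay below the 2 CD43+ samples, with differences of -0.35 (bead SE 0.038) in dKO and -0.74 (bead SE 0.044) in WT. Under median scaling dKO CD43- cells lay just above WT CD43+ cells, with fitted differences of 0.56 for genotype and -0.52 for fraction. Tpi1, triose phosphate isomerase, differed by -0.28 (bead SE 0.067) in dKO and -0.68 (bead SE 0.069) in WT, and Pgam1, a phosphoglycerate mutase, by -0.43 (bead SE 0.119) and -0.63 (bead SE 0.149). None of the 3 passed the fit (limma, adjusted p = 0.097, 0.124 and 0.0805). Eno1, the general enolase, differed by -0.12 (bead SE 0.087) in dKO and -0.31 (bead SE 0.106) in WT. Eno3, the muscle enolase, was a dim gene with signals of 76.2 in dKO CD43- and 127 in WT CD43- cells, and of 111 in dKO CD43+ and 225 in WT CD43+ cells. It differed by -0.55 (bead SE 0.248) in dKO and -0.83 (bead SE 0.148) in WT and fell by 0.69 in the fit (limma, adjusted p = 0.0499), at the edge of the threshold, and was called in 7 of 9 versions.

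At the end of the chain, pyruvate kinase makes pyruvate and lactate dehydrogenase turns it into lactate. Ldha, the lactate-forming subunit, had signals of 5304 in dKO CD43- and 5007 in WT CD43- cells, and of 8437 in dKO CD43+ and 9473 in WT CD43+ cells. The fraction groups did not overlap, Ldha was 1.59-fold lower in CD43- cells in dKO and 1.89-fold lower in WT, and it fell by 0.79 in the fit (limma, adjusted p = 0.0337). Pkm2 differed by -0.17 (bead SE 0.071) in dKO and by -0.61 (bead SE 0.071) in WT and did not pass (limma, adjusted p = 0.198).

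The switch between lactate and mitochondrial oxidation had members on both sides. Pdk1, a kinase that inactivates pyruvate dehydrogenase, had signals of 189 in dKO CD43- and 175 in WT CD43- cells, and of 340 in dKO CD43+ and 326 in WT CD43+ cells. It was 1.80-fold lower in CD43- cells in dKO and 1.86-fold lower in WT, and it fell by 0.87 in the fit (limma, adjusted p = 0.0231). Pdk3, another kinase of the family, had signals of 337 in dKO CD43- and 229 in WT CD43- cells, and of 526 in dKO CD43+ and 498 in WT CD43+ cells. It was 1.56-fold lower in CD43- cells in dKO and 2.18-fold lower in WT, and it fell by 0.88 (limma, adjusted p = 0.0375). Both kinases fell. The subunits of the enzyme they inactivate had values above 0. Pdha1 differed by 0.20 (bead SE 0.088) in dKO and 0.46 (bead SE 0.065) in WT, and Pdhb by 0.31 (bead SE 0.12) and 0.30 (bead SE 0.12). Neither subunit passed the fit (limma, adjusted p = 0.213 and 0.222).

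In the pentose phosphate pathway no member passed. Of the oxidative arm, which makes NADPH, G6pdx, glucose 6-phosphate dehydrogenase, differed by 0.28 (bead SE 0.119) in dKO and -0.10 (bead SE 0.146) in WT, and Pgd, 6-phosphogluconate dehydrogenase, by 0.14 (bead SE 0.091) and -0.031 (bead SE 0.086), the WT value being 0.056 under median scaling. Of the non-oxidative arm, Tkt, transketolase, had signals of 2744 in dKO CD43- and 2725 in WT CD43- cells, and of 3930 in dKO CD43+ and 4886 in WT CD43+ cells. It lay below 0 by -0.52 (bead SE 0.111) in dKO and -0.84 (bead SE 0.107) in WT, with an adjusted p of 0.054 in the limma fit. Taldo1, transaldolase, differed by -0.11 in both genotypes (bead SE 0.064 and 0.066). Rpia, which makes ribose 5-phosphate, had signals of 1749 in dKO CD43- and 1618 in WT CD43- cells, and of 1255 in dKO CD43+ and 1122 in WT CD43+ cells. It stood above 0 in both genotypes, by 0.48 and 0.53, with an adjusted p of 0.0829. Tkt and Rpia, which act in the same arm, lay on opposite sides of 0, and neither passed.

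**Figure D2:**
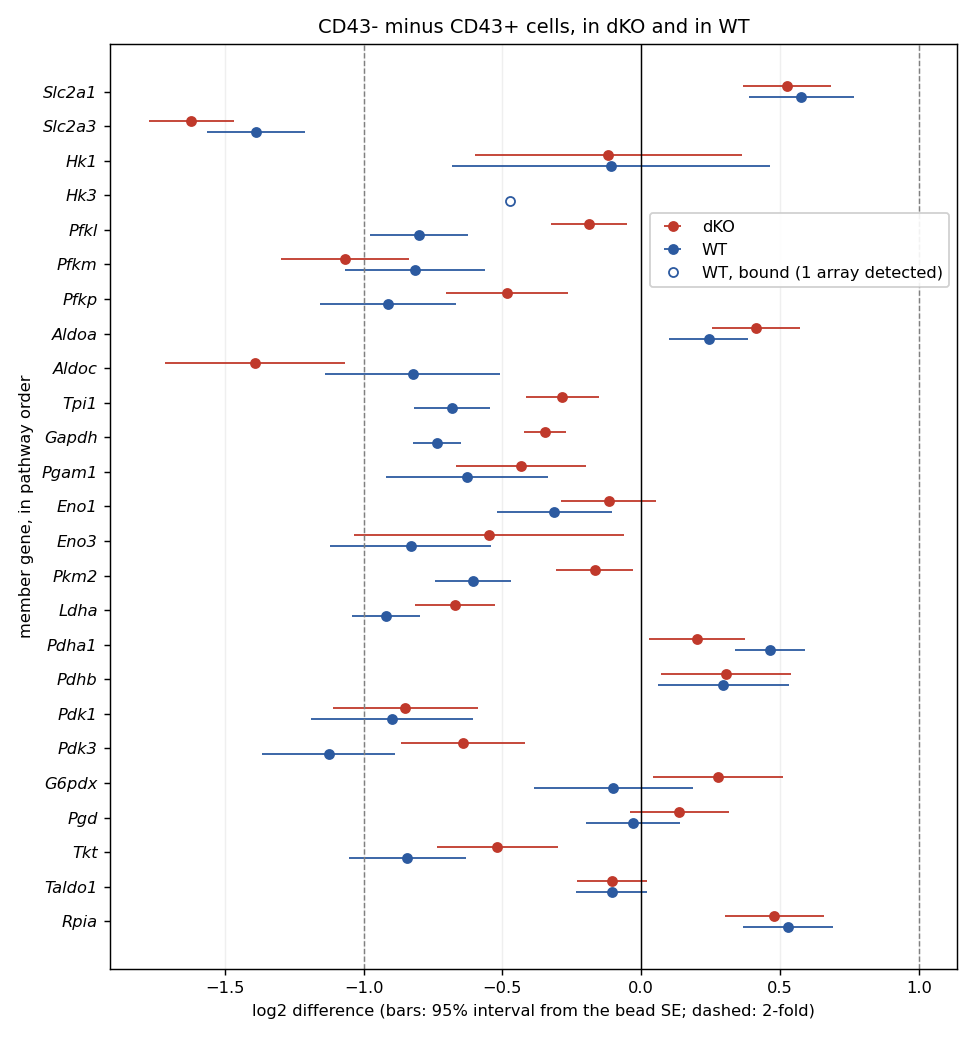
Log2 difference of CD43- minus CD43+ cells for 24 members in dKO and 25 in WT, with dKO in red above WT in blue, bars of the 95% interval from the bead SE and dashed lines at 2-fold. The open circle is the bound for Hk3 in WT; Slc2a3 lies farthest left in both genotypes, at -1.62 in dKO and -1.39 in WT, and Slc2a1, Aldoa, Pdha1, Pdhb and Rpia lie right of 0 in both.

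Markers of other cells and of dividing cells moved with the fractions. The summed raw signal of 9 markers of plasmacytoid dendritic cells was 32490 in dKO CD43- and 23005 in WT CD43- cells, against 96649 in dKO CD43+ and 67522 in WT CD43+ cells. Of these, Ly6d gave 17340 in dKO CD43- and 14860 in WT CD43- cells, against 15590 and 8372 in CD43+ cells. The median difference of the list was -2.796 in dKO and -3.365 in WT. The summed raw signal of 10 NK markers was 3717 in dKO CD43- and 2467 in WT CD43- cells, against 31053 in dKO CD43+ and 17607 in WT CD43+ cells. Ncr1, Eomes and Tbx21 were not detected in CD43- cells. That of 9 T-cell markers was 2726 in dKO CD43- and 1852 in WT CD43- cells, against 15333 in dKO CD43+ and 9102 in WT CD43+ cells, with Cd3d, Cd3e and Cd3g not detected in CD43- cells. The 10 erythroid genes went the other way, with 30680 in dKO CD43- and 29806 in WT CD43- cells, against 13950 in dKO CD43+ and 15886 in WT CD43+ cells. The 10 monocyte and macrophage genes summed to 3616 in dKO CD43- and 2282 in WT CD43- cells, against 18863 in dKO CD43+ and 15682 in WT CD43+ cells, most of the CD43+ sums coming from Ly6c1 (16600 in dKO and 11240 in WT). In the other direction, the macrophage genes C1qb and C1qc had higher values in CD43- cells, with folds of 2.59 and at least 2.42 in dKO and of at least 3.87 and at least 2.28 in WT. Cd14 and Ccr2 were not detected on any array. The 13 neutrophil genes summed to 12280 in dKO CD43- and 11476 in WT CD43- cells, against 10276 in dKO CD43+ and 31710 in WT CD43+ cells. Their median difference was 0.19 in dKO, with 8 of 12 above 0, and -1.48 in WT, with 12 of 12 below 0, beside members' medians of -0.28 in dKO and -0.68 in WT. The 12 B-lineage genes summed to 47213 in dKO CD43- and 46420 in WT CD43- cells, against 32846 in dKO CD43+ and 29251 in WT CD43+ cells. The part of these cells in the members' differences was not tested. The proliferation list of 20 genes on the table (cell-cycle and replication genes) had a median difference of 0.22 in dKO, with 17 of 19 members above 0, and of -0.58 in WT, with 18 of 18 below 0.

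The genotypes were compared within each fraction, to ask what the loss of Btg1 and Btg2 did to these genes. Pkm2, G6pdx and Eno3 had lower values in dKO than in WT in both fractions. Aldoc, Gapdh, Pdk3, Slc2a3 and Slc2a1 were among those with higher values in both, but no member passed the test. In CD43- cells 0 of 24 members were higher in dKO by 2-fold or more (background 3.65%) and 0 of 24 were lower by that much (background 2.59%), with a median of -0.016 against 0.0072 over all 7944 genes. In CD43+ cells 0 of 25 were higher by 2-fold or more (background 1.74%) and 1 of 25, Eno3, was lower by 2.03-fold (background 2%), with a median of -0.17 against 0.041 over 8631 genes. At 1.5-fold, 1 of 24 members, Eno3, was lower and 0 higher in CD43- cells (background 8.85% and 10.3%), and Eno3, Pkm2, G6pdx and Hk3 were lower in CD43+ cells (4 of 25, background 7.7%), where Aldoc was higher (1 of 25, background 9.13%). The counts at 2-fold are near the background. In CD43- cells 13 of 24 members were below 0 and 11 above 0, against 49.3% and 50.6% of all genes, and in CD43+ cells 17 of 25 were below 0 and 8 above 0, against 45.6% and 54.2%. Of 24 members, 12 were below 0 in both fractions, 7 were above 0 in both and 5 had opposite signs, though the sign of 9 members in each fraction changed with the processing.

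The limma fit of genotype to the 4 arrays, blocked by fraction, called 0 of 25 members in either direction, against 0.0223% of 8962 genes that rose and 0% that fell. The unadjusted p was under 0.05 for 3 members, Eno3, G6pdx and Pkm2, and for 1593 genes. Restricted to genes detected on every array, the fit called these 3 members lower in dKO (limma, adjusted p = 0.0167, 0.04 and 0.034), where 3.64% of genes were called lower.

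Pkm2 had normalised signals of 2199 in dKO CD43- and 3184 in WT CD43- cells, and of 2470 in dKO CD43+ and 4845 in WT CD43+ cells. Both dKO samples were below both WT samples. The log2 difference of dKO minus WT was -0.53 (bead SE 0.07) in CD43- and -0.97 (bead SE 0.072) in CD43+ cells, folds of 1.45 and 1.96, and the adjusted p of the fit was 0.205 (limma). Whether the single probe separates the M1 and M2 forms of pyruvate kinase is not known here. G6pdx, the entry to the pentose phosphate pathway, had signals of 239 in dKO CD43- and 341 in WT CD43- cells, and of 197 in dKO CD43+ and 365 in WT CD43+ cells. Its genotypes did not overlap either, with differences of -0.51 (bead SE 0.132) in CD43- and -0.89 (bead SE 0.134) in CD43+ cells (limma, adjusted p = 0.209). Eno3 differed by -0.74 (bead SE 0.249) in CD43- and by -1.02 (bead SE 0.146) in CD43+ cells (limma, adjusted p = 0.172). Its signals, given above, did not overlap between the genotypes, with 111 in dKO CD43+ cells just below 127 in WT CD43- cells. Under median scaling the order of these 2 samples was reversed, with fitted differences of -0.64 for genotype and -0.80 for fraction. Pkm2, G6pdx and Eno3 were below 0 in both fractions in all 7 ways of processing the values.

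Some members had higher values in dKO than in WT. Gapdh differed by 0.53 (bead SE 0.041) in CD43- and 0.14 (bead SE 0.042) in CD43+ cells, where it was -0.0079 when arrays were scaled to the median of the probes detected on all of them. Slc2a1 differed by 0.24 (bead SE 0.09) in CD43- and 0.29 (bead SE 0.088) in CD43+ cells, and Slc2a3 by 0.18 (bead SE 0.089) and 0.41 (bead SE 0.08). Pdk3 differed by 0.56 (bead SE 0.131) in CD43- and 0.077 (bead SE 0.103) in CD43+ cells, while Aldoc differed by 0.11 (bead SE 0.188) and 0.68 (bead SE 0.134). None passed the fit (limma, adjusted p from 0.367 for Aldoc to 0.422 for Pdk3 among these 5). The signs of these 5 members held in all 7 ways of processing apart from Gapdh in CD43+ cells. Pfkl and Pfkp were below 0 in CD43+ cells, by -0.53 each (bead SE 0.088 and 0.125), and had differences of 0.081 (bead SE 0.072) and -0.096 (bead SE 0.112) in CD43- cells. These values depended on the processing. In the RMA values Pfkl was 0.64 in CD43- and 0.12 in CD43+ cells, and Pfkp was -0.62 in CD43- cells, where its other detected probe gave -0.63 and median scaling gave 0.16. Pfkm, Aldoa, Eno1, Pgd, Tkt and Tpi1 lay between -0.29 and 0.17 in CD43- cells and between -0.41 and -0.033 in CD43+ cells. Ldha, Pdk1, Hk1, Pgam1, Pdha1, Pdhb, Taldo1 and Rpia lay between -0.21 and 0.19 in both fractions.

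**Figure D3:**
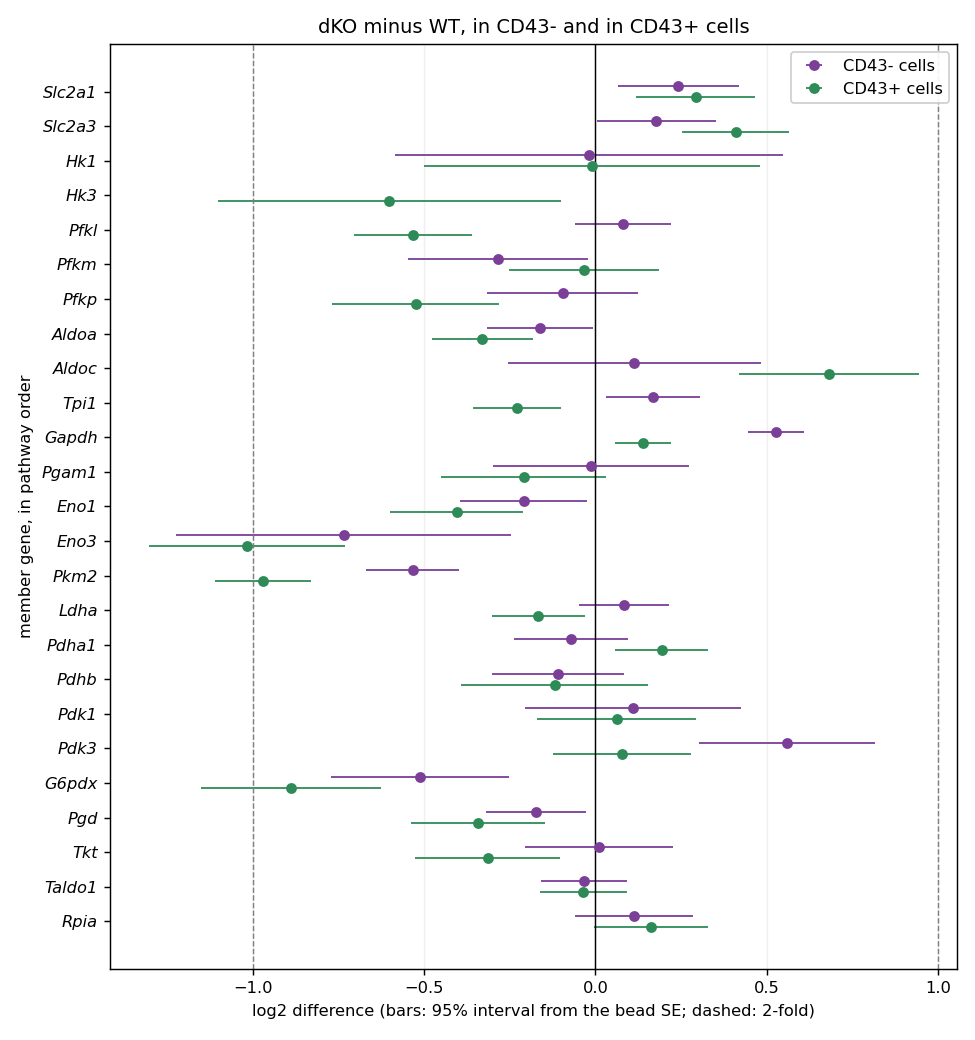
Log2 difference of dKO minus WT for the members, with CD43- cells in purple above CD43+ cells in green, bars of the 95% interval from the bead SE and dashed lines at 2-fold. Pkm2, G6pdx and Eno3 lie left of 0 in both fractions, Eno3 reaching -1.02 in CD43+ cells, and Hk3 is shown for CD43+ cells alone.

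Other values moved with genotype. The summed raw signal of 13 neutrophil granule and granulocyte markers was 12280 in dKO CD43- and 11476 in WT CD43- cells, but 10276 in dKO CD43+ and 31710 in WT CD43+ cells, and 12 of 12 tested members were lower in dKO CD43+ cells, with a median of -2.36. Mmp8 was not detected on any array, and S100a8 was the brightest on all 4. NK markers were higher in dKO CD43+ cells in 10 of 10 genes, with a median of 0.67. In CD43- cells 2 of 5 NK markers were above 0, with a median of -0.25. Erythroid genes were lower in dKO CD43+ cells in 8 of 8 genes, with a median of -0.21, and in CD43- cells in 5 of 9. Plasmacytoid dendritic markers were higher in dKO CD43- cells in 8 of 8 genes, with a median of 0.91. In CD43+ cells 6 of 9 of them were above 0, with a median of 0.21. The part of these cells in the lower Eno3, Hk3, Pkm2, Pfkl, Pfkp and G6pdx values of dKO CD43+ cells was not tested. In CD43- cells, on the normalised values, 10 of 12 neutrophil markers were also below 0 in dKO minus WT, with a median of -0.32. So were 13 of 24 members, among them Eno3, Pkm2 and G6pdx, against 49.3% of all genes. The part of neutrophils there was not tested. The proliferation list was above 0 in dKO CD43- cells in 19 of 19 genes, with a median of 0.68, and had a median of 0 in CD43+ cells, while the members' median in CD43- cells was -0.016.

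The fraction difference in dKO minus that in WT was then taken per member, a value that 4 single arrays cannot test. It was above 0 for 17 of 24 members, with a median of 0.18, against 47.1% of 7613 genes and a median of -0.025. The largest values were those of Pfkl (0.61), Pdk3 (0.48), Pkm2 (0.44) and Pfkp (0.43), and the lowest that of Aldoc (-0.57). The proliferation list was above 0 in 19 of 19 genes, with a median of 0.74. The value of Pfkp rests on 1 probe. Its other detected probe had fraction differences of -0.40 in dKO and -0.39 in WT, and the RMA values were -0.33 and -0.42. The same arrays enter both comparisons of each fraction, and across 7 ways of processing the count of members above 0 lay between 14 and 18.

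**Figure D4:**
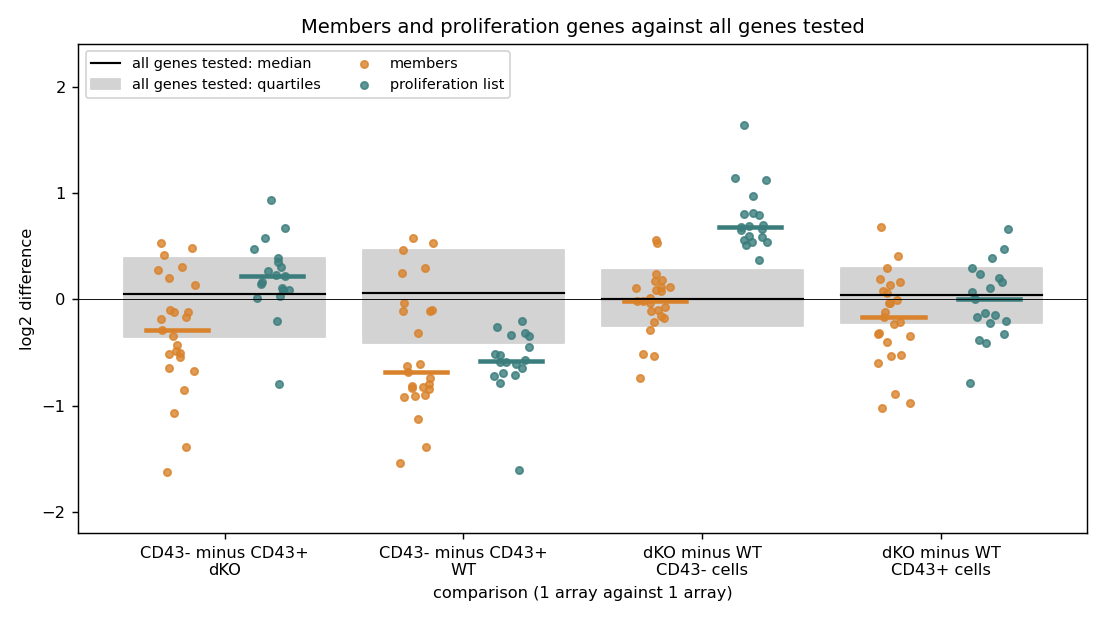
Log2 differences of the members (orange) and of the proliferation list (teal) in the 4 comparisons, each dot a gene, with coloured lines at the list medians and a grey band from the lower to the upper quartile of all genes tested. The medians of the members (-0.68) and of the proliferation list (-0.58) lie below the band in WT cells compared by fraction, and the proliferation list lies above it in dKO CD43- cells against WT (0.68).

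Other genes of glucose metabolism gave a wider range. In a list of 67 further pathway genes on the table, the fraction comparison covered 34 genes in each genotype. By the 2-fold threshold 1 was higher and 5 were lower in CD43- cells in dKO (background 6.06% and 10.6%). In WT 1 was higher and 7 were lower (background 7.85% and 11.2%). Emb, which encodes embigin, a partner of lactate transporters, had raw signals of 250 in dKO CD43- and 199 in WT CD43- cells, against 2426 in dKO CD43+ and 1226 in WT CD43+ cells, with log2 differences of -4.09 (bead SE 0.137) in dKO and -3.87 (bead SE 0.138) in WT. Khk, ketohexokinase, which phosphorylates fructose, differed by -3.17 (bead SE 0.11) in dKO and -3.56 (bead SE 0.103) in WT. Pgam2, the muscle mutase, differed by -3.10 (bead SE 0.191) in dKO and was at least 7.13-fold lower in WT CD43- cells, where it was not detected. These differences were larger than that of any member. The summed signals of plasmacytoid dendritic, NK and T-cell markers were also lower in CD43- cells, and that of erythroid genes was higher. Neutrophil genes had a median of 0.19 in dKO and -1.48 in WT, and monocyte and macrophage genes went both ways. The part of these cells in the differences of Emb, Khk and Pgam2 was not tested.

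Between the genotypes, 0 of 36 of these further genes passed 2-fold in CD43+ cells (background 1.74% higher and 2% lower). The largest fitted differences there were those of 3 genes detected on 1 array. Slc2a9, the urate transporter, was at least 1.39-fold higher in dKO. Bsg, encoding basigin, a partner of lactate transporters, and Gpd1l, a relative of glycerol 3-phosphate dehydrogenase, were each at least 1.2-fold lower. In CD43- cells 3 of 33 were counted as higher in dKO at 2-fold and 0 as lower (background 3.65% and 2.59%). Of the 3, Slc2a6, a sugar transporter of the same family, was higher by 1.33 (bead SE 0.091), with raw signals of 699 in dKO and 300 in WT. Slc2a9 and Pgam2 entered the count through fitted values in a WT sample where they were not detected, and their bounds were at least 1.43-fold and at least 1.23-fold. In the RMA values Slc2a9 differed by 0.21, below its bound of 0.51 in log2, and Pgam2 by 2.34, above its bound of 0.30.

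Of 32 regulators and HIF response genes on the table, 2 of 19 were higher by 2-fold or more and 3 of 19 lower in CD43- cells in dKO (background 6.06% and 10.6%). In WT 3 of 20 were higher and 2 of 20 lower (background 7.85% and 11.2%). These counts include fitted values of genes detected on 1 array, such as Car9 in dKO, whose bound is under 2-fold. Ankrd37, a HIF target, was 3.24-fold higher in dKO and 3.73-fold higher in WT. Car9, another HIF target, was at least 1.76-fold lower in dKO and at least 2.26-fold lower in WT, and Egln3, a HIF prolyl hydroxylase, was lower by -1.70 (bead SE 0.191) in dKO. Vegfa, a HIF target encoding an angiogenic factor, was at least 4.71-fold lower in WT CD43- cells. These response genes went both ways, and Hif1a itself differed by 0.10 (bead SE 0.152) in dKO and 0.08 (bead SE 0.218) in WT. Between the genotypes, Ndrg1, a stress and hypoxia response gene, was higher in dKO CD43+ cells by 1.04 (bead SE 0.117), and in CD43- cells dKO had at least 2.32-fold more Vegfa. The authors' RMA values gave 0.80 for Vegfa there, below its bound of 1.21 in log2. Egln2, a HIF prolyl hydroxylase, differed by -0.64 (bead SE 0.198) and Max, the partner of MYC, by 0.63 (bead SE 0.233) in CD43+ cells. In CD43- cells Egln3 differed by -0.94 (bead SE 0.22), and Mlxipl, a glucose-responsive transcription factor, was at least 1.07-fold lower in dKO. Hif1a and Myc are given as the regulators named above and were picked after their values were seen. Hif1a differed by 0.22 (bead SE 0.181) in CD43- and 0.20 (bead SE 0.195) in CD43+ cells. Myc was detected in CD43+ cells only, with raw signals of 182 in dKO and 184 in WT.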

How the data were processed

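RNA of 4 samples was read on Illumina mouse bead arrays. Per the file headers, the deposited bead intensities came from GenomeStudio 1.9.0 and were not normalized. For each probe the table gives the mean of its beads (linear), the SD and number of those beads, and a detection score that is a fraction between 0 and 1. Since the score rose with signal, the detection p was its complement. The authors also deposited values on a log2 scale, made with RMA per the submitters' processing notes and identical to the series matrix for 18119 of 18119 shared identifiers (column medians 3.77 to 3.79). How RMA was set is not given in the sources used here. Of values per sample, 16 other columns were not used.

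Signals were background corrected, quantile normalised and log2 transformed with neqc (offset 16) in limma 3.58.1 (R 4.3.3). The offset shrinks differences of dim genes. The brightest probe represented a gene. A gene entered a comparison if either array detected it. If just 1 did, the difference is a bound ("at least N-fold"): the undetected side was set to its own value or, if higher, to the lowest value detected there. Such a bound holds within this normalisation alone. Levels of different probes were not compared. The bead SE is the bead SD over the square root of the bead number, carried to the log2 scale. It is the only precision a single array gives.

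Each array was its own group (from its title), so differences have no test and were counted at 2-fold. An additive limma fit (lmFit, eBayes) with genotype and fraction gave the tests, at an adjusted p under 0.05. Its steps were run on simulated arrays in which genotype and fraction changes did not interact, so that run does not measure its errors on these data. Of 18138 gene identifiers, 14300 matched a current RefSeq symbol (GRCm38.p6), 2885 a synonym, and 953 kept the file's name. Alternatives were no background correction, an offset of 50, median scaling, the RMA table, the mean over a gene's probes, other detection filters and bounds. Named genes were all members on the table, the 3 tested genes with the largest difference in each of the other lists of the pathway and its regulators, and the brightest or at least 2-fold changed markers. The members and lists were chosen with earlier results of these data known.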

Additional observations from a re-analysis of the deposited data

Results flagged for a closer look

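Tpi1, which encodes triose phosphate isomerase, lay on opposite sides of 0 between dKO and WT in the 2 fractions. The log2 difference was 0.1675 in CD43- cells (bead SE 0.071) and -0.2296 in CD43+ cells (bead SE 0.066). Its 2 other probes gave 0.26 and 0.18 in CD43- cells and -0.19 and -0.73 in CD43+ cells. With 1 array per group the difference between the fractions was not tested, and under median scaling the value in CD43+ cells was 0.018.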

How the results depend on the processing

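No paired analysis was possible because the labels carry no replicate numbers, beyond the fits that block by genotype or by fraction. With 1 array per group, no replicate could be left out. The number of members at least 2-fold lower in dKO CD43+ cells was 0 without background correction, 0 with an offset of 50, 0 with median scaling and 2 with scaling on the probes detected on all 4 arrays, an alternative chosen after seeing the data. Median scaling moved the median of all genes in dKO minus WT by 0.24 in CD43- and 0.28 in CD43+ cells, and the members' medians were then 0.23 and 0.12, as far from all genes as before (-0.019 and -0.20, against -0.023 and -0.21). Genes at least 2-fold higher and lower in dKO were then 472 and 93 in CD43- and 400 and 118 in CD43+ cells, against 290 and 206, and 150 and 173. With scaling on detected probes they were 235 and 235, and 89 and 318. Without background correction 1 member was at least 2-fold lower in CD43- cells in dKO and 1 in WT, and the WT median was -0.46. The WT median was also -0.46 without a detection filter. The limma fit of fraction called 13 members lower without background correction (16.2% of all genes), 12 with an offset of 50 (15.6%), 12 among genes detected on every array (14.6%) and 1, Slc2a3, in the authors' RMA table (6.82%). It called 2 members higher, Slc2a1 and Rpia, without background correction (8%, against 16.3% of all genes) and with an offset of 50 (8%, against 15%). Among genes detected on every array it called the same 2 higher (8.33%, against 20.8%). The limma fit of genotype called 2 members lower without background correction (2.63% of all genes) and 3 among genes detected on every array (3.64%): Eno3, Pkm2 and G6pdx. Their adjusted p was then 0.0167, 0.034 and 0.04, and over all versions it ran from 0.0167 to 0.327, 0.0177 to 0.338 and 0.04 to 0.336. The cause of these moves was not tested. Between the genotypes, the sign of 9 of 24 members in CD43- and of 9 of 25 in CD43+ cells varied with the processing. Between the fractions only that of Pfkl in dKO and of Pgd in WT did. The number of arrays, 1 per group, limits the precision, and dim members such as Hk1 and Eno3 have wide reading errors.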
